A study of Sus scrofa with 27 samples.

Results

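The 9 genes described here encode the mucins and other secreted products of the airway lining and a regulator of the cells that make them: MUC1, MUC2, MUC4, MUC5AC, MUC5B, SCGB1A1, BPIFA1, BPIFB1 and SPDEF. They were taken by gene name from a table of 31908 Ensembl genes, and a gene was to be dropped if it was absent or stayed under 10 counts in all libraries. The genes were thus selected on measured counts in at least 1 library, and with the MUC2 counts of GS lungs already known. None was dropped, and the one nearest to the limit was MUC4, with 78 counts in its highest library. The gene name column holds 4 of the 9 symbols, and the other 5 genes, all mucins, have that column empty and were found through the table's own description of the gene and its RefSeq match. Pig lungs were kept alive outside the body by ex vivo lung perfusion (EVLP), in which a ventilated lung is perfused with Steen solution, and RNA was sequenced from a lung biopsy at 0h (after cold ischemia and before EVLP), 6h and 12h of EVLP.

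In the Gold Standard (GS) group, 5 pigs (9, 17, 44, 55 and 77) gave lungs whose perfusate was partly replaced at intervals. In the Pediatric Dialysis (PD) group, 4 pigs (2, 3, 4 and 5) gave lungs whose perfusate was instead dialyzed continuously by a pediatric veno-venous hemodialysis system. Both groups were Large-White pigs used as non-heart-beating donors, and both received the same Toronto-type EVLP with methylprednisolone, cefuroxime and heparin in the perfusate, so no group lacks the steroid. The labels name no deleted gene or transgene. Each of the 9 pigs was sampled at all 3 times, which gave 27 libraries. The age of the pigs and the size of the airways caught in a biopsy are not given in the sources used here.

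Mucus on the airway surface is a gel of very large glycoproteins. MUC5AC and MUC5B are the gel-forming mucins of the airway, made by goblet cells and submucosal glands, and MUC2 is the gel-forming mucin best known from the intestine. MUC1 and MUC4 are mucins anchored in the cell membrane, where they form part of the surface layer above which the gel moves. SCGB1A1 is the secretoglobin that defines club cells of the small airways, BPIFA1 and BPIFB1 are secreted lipid-binding proteins of the airway epithelium with roles in host defence, and SPDEF is the transcription factor that drives goblet cell differentiation and mucus production. A biopsy holds many cell types, so fewer cells of a type and less RNA per cell cannot be told apart in these values.

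In the Sscrofa11.1 build and the Ensembl annotation of the table, 4 of the genes lie on chromosome 2. MUC2 (ENSSSCG00000040035) is at chr2:689376-719543, MUC5AC (ENSSSCG00000033382) at chr2:760215-790317 and MUC5B (ENSSSCG00000033452) at chr2:810372-841538, all on the plus strand, with gaps of 40671 and 20054 bases between neighbours. Ensembl calls this MUC5B a pseudogene, whereas RefSeq holds it as protein-coding. SCGB1A1 (ENSSSCG00000013060) is on the minus strand at chr2:9297283-9302165. BPIFA1 (ENSSSCG00000007260, chr17:36754498-36761621) and BPIFB1 (ENSSSCG00000007261, chr17:36782262-36809754) are plus-strand neighbours with 20640 bases between them. MUC1 (ENSSSCG00000006525) is at chr4:94626371-94631192 on the plus strand and SPDEF (ENSSSCG00000036573) at chr7:30515925-30524595 on the minus strand. MUC4 (ENSSSCG00000011850) is at chr13:134220652-134248430 on the plus strand, inside the span of MUC20 on the other strand. The strand that was counted is not given in the sources used here, so reads of MUC4 and MUC20 could not be told apart with certainty.

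The sequence before the start of each gene was read from the genome of the same build, to show what stands there in the genes described below. The 250 bases before the RefSeq start were searched on both strands for TATTTAC and TGTTTAC, forms of the site read by forkhead factors. They were also searched for TATAAA and for TGANTCA, a loose form of the AP-1 site that takes any base in the middle. TATTTAC was added to the search after the windows had been seen. It stands in 4 of the 9 windows, which is how it was picked. It also stands in 2.41% of 19561 windows of the same length, and since it was picked from these 9 nothing is read from the difference. The first base of the stretch, on the strand of the gene, is at position -106 of MUC5AC, -87 of SCGB1A1, -8 of BPIFA1 and -69 of BPIFB1, counted from the start of the gene. TGTTTAC (2.27% of windows) and TATAAA (9.76%) were found in none of the 9, and TGANTCA (5.27%) was found in MUC2 alone, at -149. There it read TGAATCA, with an A where the AP-1 site has C or G, so it is not an exact AP-1 site. The 4 windows that hold TATTTAC are printed 5′ to 3′ on the strand of the gene, at chr2:757647-757896 (MUC5AC, plus), chr2:9302205-9302454 (SCGB1A1, minus), chr17:36754248-36754497 (BPIFA1, plus) and chr17:36782057-36782306 (BPIFB1, plus), from RefSeq starts on Sscrofa11.1. Capitals mark TATTTAC.
MUC5AC: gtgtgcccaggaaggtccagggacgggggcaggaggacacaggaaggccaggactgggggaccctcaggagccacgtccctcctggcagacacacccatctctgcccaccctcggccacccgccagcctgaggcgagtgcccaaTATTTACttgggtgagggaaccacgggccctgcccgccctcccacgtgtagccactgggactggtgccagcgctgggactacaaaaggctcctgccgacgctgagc
SCGB1A1: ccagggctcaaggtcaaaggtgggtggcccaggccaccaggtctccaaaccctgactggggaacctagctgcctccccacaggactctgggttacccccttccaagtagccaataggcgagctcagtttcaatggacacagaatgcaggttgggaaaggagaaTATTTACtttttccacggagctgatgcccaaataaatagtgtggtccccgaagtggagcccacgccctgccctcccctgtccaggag
BPIFA1: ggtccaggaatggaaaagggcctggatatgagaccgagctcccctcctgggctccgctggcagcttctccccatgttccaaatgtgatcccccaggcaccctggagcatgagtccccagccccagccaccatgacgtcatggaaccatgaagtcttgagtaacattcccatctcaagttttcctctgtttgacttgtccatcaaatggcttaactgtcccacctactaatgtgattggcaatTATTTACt
BPIFB1: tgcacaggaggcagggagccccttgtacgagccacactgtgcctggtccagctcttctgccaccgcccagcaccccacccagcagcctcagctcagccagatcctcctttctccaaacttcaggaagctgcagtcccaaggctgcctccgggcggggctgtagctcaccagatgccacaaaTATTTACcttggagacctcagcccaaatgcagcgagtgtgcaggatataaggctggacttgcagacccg
A match of letters is a description of the sequence only. SCGB1A1 and BPIFA1 passed the test of change in GS lungs given later, and BPIFB1 and MUC5AC did not.

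Library totals ran from 26335584 to 67522703 counts in GS and from 14650700 to 21820935 counts in PD. Levels are given as CPM, the counts of a gene divided by the TMM-scaled library total and given in parts per 1000000, and a floor of 3 counts came to 0.0411 to 0.104 CPM in GS and 0.129 to 0.324 CPM in PD, counting error only. A pair of PD libraries stood apart, that of pig 4 at 0h and that of pig 2 at 12h. Their mean rank correlation with the rest of their group was 0.892 and 0.875, against 0.923 to 0.944 for the other 10 PD libraries and 0.946 to 0.964 in GS. Lung was marked by high summed levels of 9 alveolar type 2 cell markers, 7980 to 10700 CPM in GS and 27300 to 79100 CPM in PD at 0h. All 12 ciliated cell markers were measured, and their sum at 0h was 223 to 297 CPM in GS and 398 to 475 CPM in PD. Airway epithelium was therefore in the biopsies of all pigs at 0h. RNA was isolated with either of 2 kits, and which library had which is not given in the sources used here.

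The 9 genes differed in level by several orders of magnitude. Per kilobase of RefSeq exon, the median level in GS at 0h was 353 CPM for SCGB1A1, 21.8 for MUC1, 7.46 for BPIFA1, 6.09 for BPIFB1, 0.666 for MUC5AC, 0.207 for MUC5B, 0.175 for SPDEF and 0.0192 for MUC4, and MUC2 had a median of 0. SCGB1A1 stood clear of MUC1 in that order, with a lowest pig at 88.1 CPM per kilobase against a highest of 41.7 for MUC1. BPIFA1 overlapped with both MUC1 and BPIFB1 over the pigs, while the lowest MUC1 value, 12.2 CPM per kilobase, lay just above the highest BPIFB1 value of 12. MUC5AC, MUC5B and SPDEF overlapped with each other. In PD at 0h SCGB1A1 again came first, with a median of 1570 CPM per kilobase, followed by 25.1 for BPIFA1, 21.7 for MUC1 and 17.1 for BPIFB1, but BPIFA1 ran from 3.05 to 80 over the 4 pigs and overlapped with MUC1 (14.8 to 37.3) and with BPIFB1 (6.69 to 117), so that the order of these 3 is not settled.

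**Figure D1:**
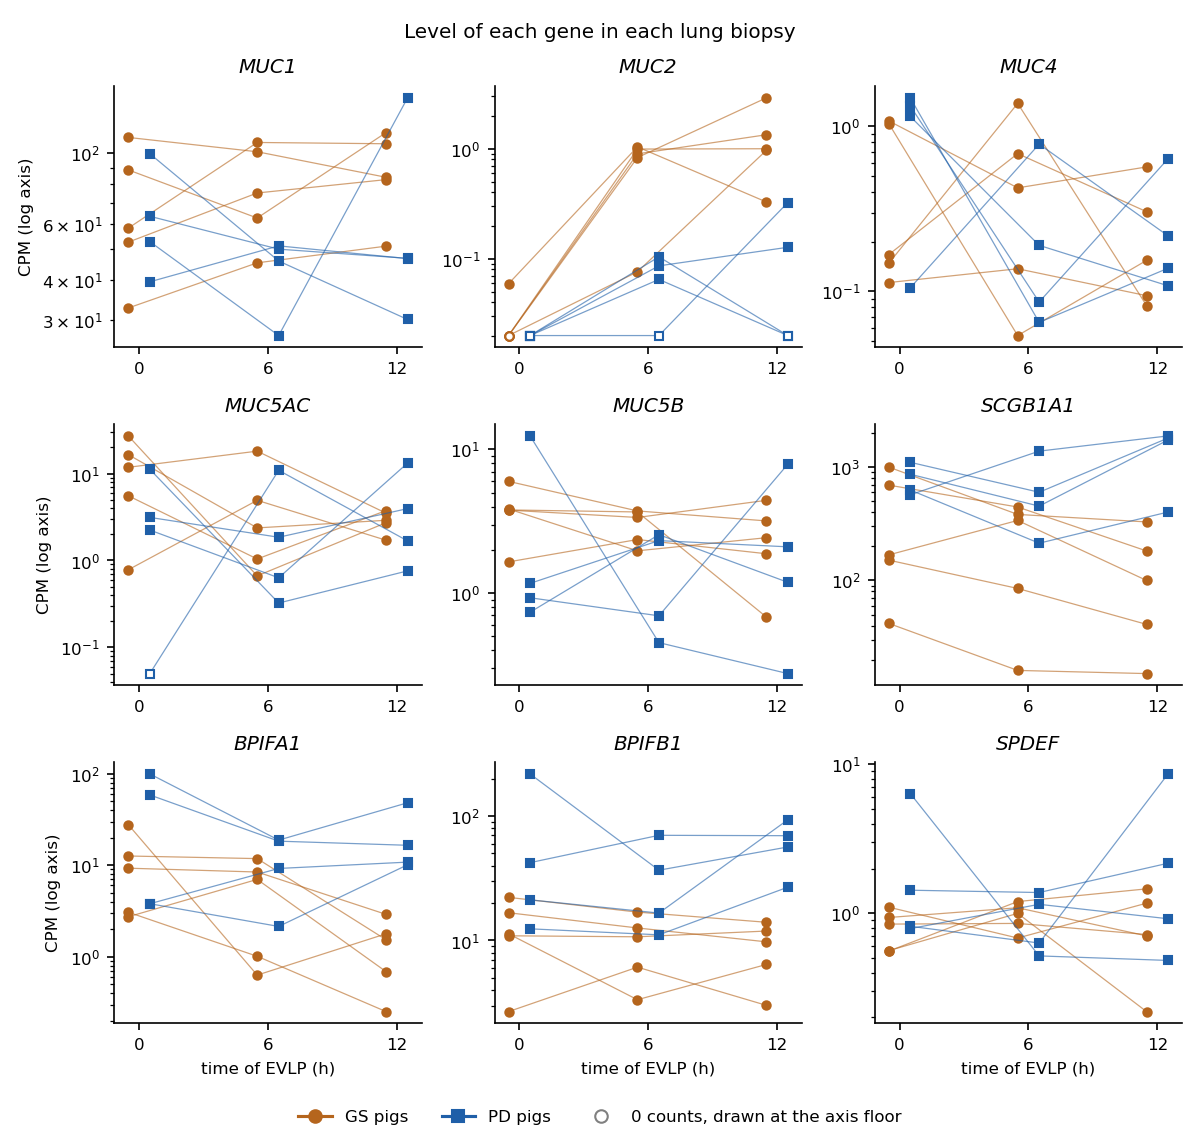
Level of each of the 9 genes in each biopsy, in CPM on a log axis, against hours of EVLP. Each line joins the 3 biopsies of one pig, orange circles are the 5 GS pigs, blue squares the 4 PD pigs, and open symbols are 0 counts drawn at the axis floor. MUC2 leaves the floor in all 5 GS pigs, and the SCGB1A1, BPIFA1 and BPIFB1 levels of PD pigs lie above all GS pigs at 12h.

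MUC2 went from almost no reads to a measured level in GS lungs and stayed close to 0 in PD lungs. In GS pigs 9, 17, 44, 55 and 77 the table held 2, 0, 0, 1 and 0 counts at 0h, 30, 4, 50, 49 and 58 counts at 6h, and 12, 35, 87, 148 and 64 counts at 12h. In PD pigs 2, 3, 4 and 5 it held 0 counts in all 4 libraries at 0h, 0, 2, 1 and 2 counts at 6h, and 3, 0, 0 and 2 counts at 12h. The GS libraries at 6h and 12h thus hold nearly all MUC2 reads of the series, and GS pig 17 at 6h was the single one of those 10 libraries under 10 counts.

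The rise of MUC2 in GS lungs was known from earlier results of these data when the gene was chosen, so its values are described without a test. Summed over the 5 GS pigs, the depth-scaled level was 71.5 times that at 0h after 6h (exact 95% interval 24.1 to 350) and 131 times after 12h (44.3 to 637), from 3 counts at 0h against 191 and 346. The intervals cover counting error only and are no test, since MUC2 reached 10 counts in 9 libraries, all of them GS at 6h or 12h. Leaving out 1 GS pig moved the ratios to between 48.6 and 180 at 6h and between 98.0 and 390 at 12h, with the highest of each without pig 9. In CPM, MUC2 spanned 0.076 to 1.04 at 6h and 0.328 to 2.90 at 12h in GS, and the 12h level exceeded the 6h level in 4 of 5 pigs, with a pooled ratio of 1.83. Of 4 pigs in PD, none exceeded 0.104 CPM at 6h, and 0.324 CPM in pig 2 at 12h was 3 counts. Summed over pigs, GS held 191 counts and PD 5 at 6h, and GS 346 and PD 5 at 12h, from deeper libraries in GS. This difference is part of how the gene was selected. The groups overlapped at 6h through GS pig 17. At 12h they did not, although the highest PD pig (0.324 CPM) and the lowest GS pig (0.328 CPM) nearly touched. Within PD no fold is given, since all groups of libraries were at or near the floor of 3 counts per library.

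MUC2 thereby became a visible share of gel-forming mucin RNA in GS. Of the summed CPM of MUC2, MUC5AC and MUC5B, MUC2 made up at most 0.377% at 0h, a median of 12% at 6h (1.03% to 24.8%) and a median of 15.8% at 12h (7.27% to 32.3%). In PD the share had a median of 1.39% and a highest value of 7.69% at 6h, which overlaps with GS, and a median of 0.758% and a highest value of 2.06% at 12h. The sum of the 3 genes had a median of 15.7 CPM at 0h, 6.94 CPM at 6h and 7.18 CPM at 12h in GS, with ranges that overlapped (2.43 to 30.9 CPM at 0h and 4.51 to 8.98 CPM at 12h). Per kilobase of exon, MUC2 remained a scarce transcript even at its highest, 0.18 CPM in GS pig 55 at 12h.

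MUC5AC, the main inducible gel-forming mucin of the airway, went the other way in most GS pigs but did not pass the test. Its level in GS pigs 9, 17, 44, 55 and 77 was 11.8, 0.782, 27.1, 16.5 and 5.55 CPM at 0h and 3.5, 1.71, 2.72, 2.9 and 3.75 CPM at 12h. The spread between pigs narrowed from 34.6 times at 0h to 2.19 times at 12h, with the low 0h pig 17 higher and the other 4 pigs lower at 12h. The fitted log2 change at 12h was -1.88 (SE 0.84, edgeR adjusted p = 0.093). At 6h the change was -1.39 (SE 0.93, edgeR adjusted p = 0.281), and GS pig 9 alone lay at 18.1 CPM against 0.665 to 4.92 CPM in the other 4.

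In PD lungs the MUC5AC level was set by single pigs. In PD pigs 2, 3, 4 and 5 it was 2.24, 0, 11.2 and 3.13 CPM at 0h, 0.632, 10.9, 0.324 and 1.85 CPM at 6h, and 13.2, 1.68, 0.759 and 3.95 CPM at 12h. Pig 3 thus went from 0 counts at 0h to 210 counts at 6h, while the highest value at each other time came from one of the libraries that stood apart. Log2 changes were -0.66 at 6h (SE 2.02) and 0.02 at 12h, with edgeR adjusted p of 0.908 and 0.997, and the SE at 6h shows how little this spread can resolve.

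MUC5B, the constitutive gel-forming mucin of airway and glands, was 3.79, 1.65, 3.78, 5.99 and 3.85 CPM in GS pigs 9, 17, 44, 55 and 77 at 0h and 0.683, 1.88, 4.42, 3.18 and 2.43 CPM at 12h. The pigs overlapped between times, and the log2 change at 12h was -0.65 (SE 0.35, edgeR adjusted p = 0.158). In PD the highest value at 0h was 12.4 CPM in pig 4 and the highest at 12h was 7.88 CPM in pig 2, which are the libraries that stood apart, and the other PD values ran from 0.276 to 2.55 CPM over the 3 times.

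The membrane mucins showed no called change either. MUC1, found on most lung epithelium, ran from 32.7 to 112 CPM (median 58.2) at 0h, 45.3 to 108 CPM (75.0) at 6h and 51.1 to 116 CPM (84.0) at 12h in GS. It was higher at 12h in 4 of 5 pigs, with a log2 change of 0.39 (SE 0.19, edgeR adjusted p = 0.129). In PD pigs 2, 3, 4 and 5 MUC1 was 52.8, 39.5, 99.6 and 63.4 CPM at 0h and 149, 46.7, 30.1 and 46.8 CPM at 12h, with pig 2 far above the others at 12h.

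MUC4 was near the floor, with 1 to 78 counts in a library. Its log2 change at 12h was -1.12 in GS (SE 0.79, edgeR adjusted p = 0.278) and -2.0 in PD (SE 1.01, edgeR adjusted p = 0.249). It was lower at 12h in 4 of 5 GS pigs and in 3 of 4 PD pigs, and the values at the times overlapped. SPDEF, with 7 to 111 counts in a library, had a median of 0.847 CPM at 0h, 1.0 at 6h and 0.721 at 12h in GS, and its log2 change at 12h was -0.05 (SE 0.37, edgeR adjusted p = 0.93). The MUC2 reads of GS lungs thus came without a called change of this goblet cell regulator, at a depth where it had at most 80 counts in a GS library.

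SCGB1A1, the club cell secretoglobin, fell in GS lungs. In GS pigs 9, 17, 44, 55 and 77 its level was 692, 151, 998, 168 and 41.8 CPM at 0h, 444, 85.0, 382, 338 and 16.1 CPM at 6h, and 182, 41.0, 328, 100 and 15.1 CPM at 12h. Every one of the 5 pigs was lower at 12h than at 0h, although the pigs differed so much at the start that the times overlapped. The log2 change at 12h was -1.61 (SE 0.28, edgeR adjusted p = 0.00106), a 3.05-fold lower level. At 6h it was -0.64 (SE 0.28, edgeR adjusted p = 0.104), with pig 55 higher and 4 pigs lower. Between 6h and 12h all 5 pigs were lower again, with a log2 change of -0.97 (SE 0.28) whose edgeR p of 0.00429 was 1 after adjustment. The 12h call rests on the pairing of biopsies by pig, since without it the change was -1.66 with an edgeR adjusted p of 0.233.

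BPIFA1, a surfactant-like secreted protein of the airway, fell more. Its level in GS pigs 9, 17, 44, 55 and 77 was 12.6, 9.27, 27.7, 2.73 and 3.06 CPM at 0h, 11.8, 8.42, 0.629, 6.99 and 1.01 CPM at 6h, and 1.53, 2.90, 1.78, 0.686 and 0.251 CPM at 12h. All 5 pigs were lower at 12h than at 0h, and the 12h values of pigs 9, 44, 55 and 77 lay under every 0h value. The log2 change at 12h was -3.05 (SE 0.69, edgeR adjusted p = 0.00434), an 8.29-fold lower level. At 6h it was -0.87 (SE 0.68, edgeR adjusted p = 0.36), and from 6h to 12h it was -2.18 (SE 0.68) with an edgeR p of 0.00667 that was 1 after adjustment.

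BPIFB1, the neighbour of BPIFA1 on chromosome 17, did not pass the test. In GS pigs 9, 17, 44, 55 and 77 it was 22.2, 2.68, 11.3, 10.9 and 16.7 CPM at 0h and 14, 3.01, 6.41, 11.9 and 9.75 CPM at 12h, which was lower in 3 of 5 pigs. The log2 change was -0.49 (SE 0.30, edgeR adjusted p = 0.205).

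Of the 8 genes other than MUC2, 2 were lower and none higher in GS at 12h, where 8.66% of all 18594 genes tested were called lower and 6.99% higher (adjusted p under 0.05 and a fold of at least 2). At 6h none of the 8 was called, where 5.56% of genes were called lower and 5.5% higher, and 1 of the 8 had an unadjusted p under 0.05. For 12h against 6h none of the 8 was called, as were 0.0% of all genes by edgeR, although 882 genes, SCGB1A1 and BPIFA1 among them, had an unadjusted p under 0.05. DESeq2 called none of the 8 at 6h or for 12h against 6h, where it called 2216 genes and 1 gene of the whole table.

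**Figure D2:**
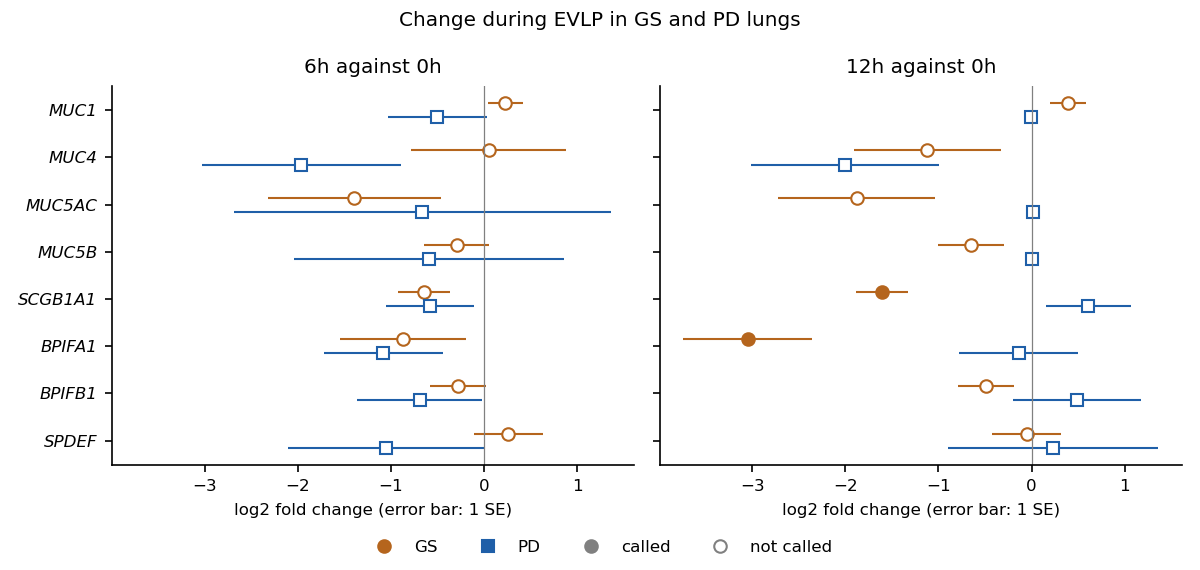
Log2 fold change of 8 of the genes at 6h and 12h against 0h in GS (orange circles) and PD (blue squares), as fitted by edgeR with the pig as a block. Bars are 1 SE, filled symbols passed the test, and MUC1, MUC5AC and MUC5B in PD at 12h have no bar because a change this close to 0 gives no stable SE. Only SCGB1A1 (-1.61) and BPIFA1 (-3.05) in GS at 12h are filled, and the bars of PD are mostly longer than those of GS.

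Ciliated cell markers, taken as a sum, were lower at 12h in both groups of lungs in most pigs. The sum was lower in all 5 GS pigs, by log2 values from -0.22 to -0.99, and in 3 of 4 PD pigs, by -0.52, -1.02 and -1.51, while PD pig 2 was higher by 0.93. In GS it was 138 to 244 CPM at 12h against 223 to 297 CPM at 0h. Of 11 ciliated cell markers tested, 3 were called lower and none higher in GS at 12h, where 8.66% of all genes were called lower: DNAI1 (log2 -1.13) and DNAH5 (-1.01), both dynein components of the cilium, and TEKT1 (-1.06), a filament protein of the ciliary axoneme. Of 12 alternative settings, DNAH5 lost its call in 9, TEKT1 in 4 and DNAI1 in 1. The 6 basal cell markers summed to a median of 19.7 CPM (15.5 to 31) at 0h and 12.2 CPM (8.99 to 22.1) at 12h, lower in 4 of 5 pigs and higher in pig 17, by a log2 value of 0.51. In PD the basal sum was lower in none of 4 pigs, although the median log2 change over the 6 markers was -0.73. DLK2 was called higher in PD (2.04, from 1.69 to 6.37 CPM at 0h to 12.2 to 25.4 CPM at 12h), where 3.22% of all genes were. That call was lost in 2 of 12 alternatives. In GS, 4 of the 6 basal cell markers were called lower at 12h, where 8.66% of all genes were. They were KRT15 (-1.75), NGFR (-1.62), TP63 (-1.59) and DAPL1 (-1.19). KRT15, NGFR and DAPL1 were scarce, with medians of 0.157, 0.273 and 0.574 CPM at 12h in GS. The DAPL1 call was lost in 2 of 12 alternatives. The median log2 change in GS was -0.80 for the ciliated list and -1.39 for the basal list, against -0.08 over all genes tested. SCGB1A1 and BPIFA1 each fell more than the ciliated cell sum in 5 of 5 GS pigs. Gland markers were measured for 5 of 8 genes, of which 3 were tested and none called. Their sum in GS had a median of 103 CPM (97 to 138) at 0h and 139 CPM (134 to 147) at 12h. Of 9 airway cartilage markers tested, CNMD (1.57) and SOX9 (1.13) were called higher and none lower, where 6.99% of all genes were called higher, with a list median of -0.07. The part of airway tissue content in these results was not tested.

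**Figure D3:**
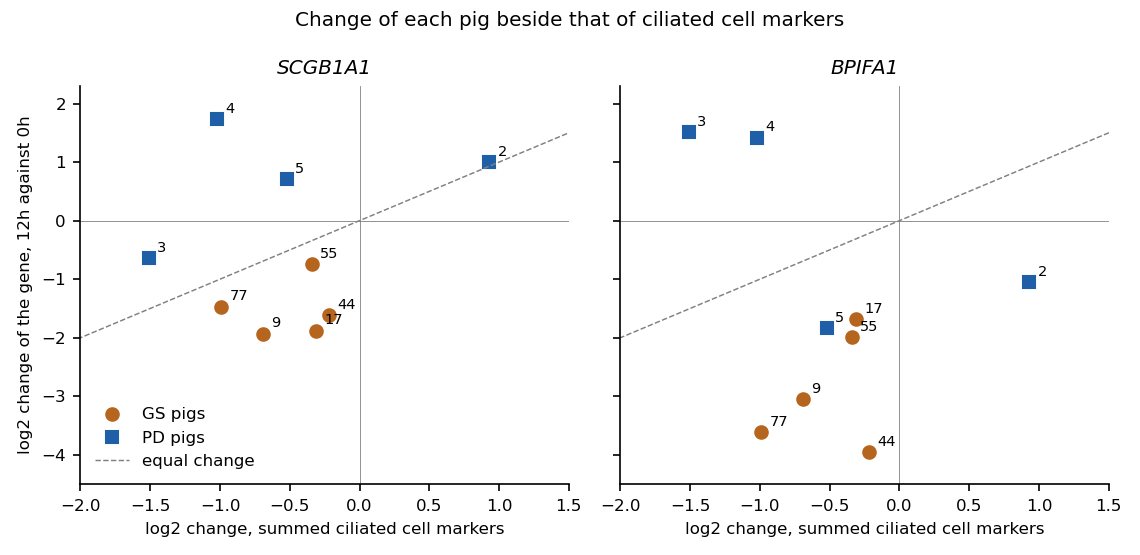
Log2 change of SCGB1A1 and of BPIFA1 from 0h to 12h in each pig, against the log2 change of the summed CPM of 12 ciliated cell markers in the same pig. Numbers are the pigs, orange circles GS and blue squares PD, and the dashed line marks equal change. All 5 GS pigs lie under the dashed line in both panels, and of the 4 PD pigs none lies under it for SCGB1A1 and 2 do for BPIFA1.

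The same secreted products took no common direction in PD lungs. SCGB1A1 in PD pigs 2, 3, 4 and 5 was 863, 627, 569 and 1100 CPM at 0h, 452, 213, 1380 and 599 CPM at 6h, and 1730, 401, 1880 and 1800 CPM at 12h. It was higher at 12h than at 0h in 3 of 4 pigs and higher than at 6h in 4 of 4, with pig 3 the low one at both EVLP times. The log2 change against 0h was -0.58 at 6h (SE 0.47, edgeR adjusted p = 0.677) and 0.61 at 12h (SE 0.46, edgeR adjusted p = 0.448), and for 12h against 6h it was 1.19 (SE 0.46, edgeR adjusted p = 0.445). Without the libraries that stood apart, the 12h change was -0.05.

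BPIFA1 in PD pigs 2, 3, 4 and 5 was 99.4, 3.79, 3.79 and 58.6 CPM at 0h and 48.1, 10.8, 10.1 and 16.5 CPM at 12h. The high pigs 2 and 5 were lower and the low pigs 3 and 4 higher, so that the spread went from 26.2 times to 4.75 times. The log2 change was -0.14 (SE 0.64, edgeR adjusted p = 0.917). BPIFB1 was 21.2, 12.4, 218 and 42.2 CPM at 0h, 16.6, 11.1, 36.7 and 70.0 CPM at 6h, and 93.3, 26.8, 56.4 and 69.5 CPM at 12h, higher at 12h in every pig but pig 4, whose 0h library stood apart. Its log2 change at 12h was 0.49 (SE 0.69, edgeR adjusted p = 0.714), and 0.82 (edgeR adjusted p = 0.094) without those libraries.

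None of the 8 genes was called in PD, where 0.142% of 15545 genes were called at 6h, 3.22% higher and 2.76% lower at 12h, and 0.0% for 12h against 6h. None of the 8 had an unadjusted p under 0.05 at 6h or 12h. For 12h against 6h 1562 genes had an unadjusted p under 0.05, and SCGB1A1 was the single one of the 8 among them. DESeq2 called 428 genes at 6h, 2560 at 12h and 221 for 12h against 6h, and none of the 8 in any of the 3 comparisons. The counts over all genes rest on single pigs, since edgeR called 0 genes at 6h and at 12h without PD pig 3 or without PD pig 5, 0 and 399 without pig 4, and 98 and 3826 without pig 2. Without the libraries that stood apart edgeR called 411 genes at 6h, 3296 at 12h and 669 for 12h against 6h, and still none of the 8.

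Whether the change itself differed between the groups was asked pig by pig, as the rlog value at 6h or 12h less that at 0h. The SCGB1A1 change at 12h was higher in PD than in GS by 1.37 on the log2 scale of rlog, with an exact two-sided Wilcoxon p of 0.0317 (adjusted p = 0.804), where 4 pigs against 5 can give no p below 0.0159. As an edgeR interaction the difference was 2.18 (adjusted p = 0.578). For BPIFA1 the difference was 1.46 with an exact p of 0.111 (adjusted p = 0.816). A difference of the changes was therefore not shown for either gene. None of the 8 passed adjustment at 6h or 12h, as did 0.0% of 17884 genes at either time, while 5.94% of genes at 6h and 3.95% at 12h had an unadjusted exact p under 0.05. Among the 8, none was in that share at 6h and SCGB1A1 alone was at 12h.

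Levels at a given time differed more. Before EVLP, BPIFB1 was 12.4 to 218 CPM in PD against 2.68 to 22.2 CPM in GS, a log2 difference of 2.58 (SE 0.77, edgeR adjusted p = 0.0188), and the groups overlapped. Without PD pig 4 it was 1.02 (edgeR adjusted p = 0.146), so that this call rests on a library that stood apart. It was the 1 call among the 8 genes, where 15.2% of 16477 genes were higher and 13.9% lower in PD. SPDEF lay just outside the call, at 1.6 (SE 0.61, edgeR adjusted p = 0.0542), and its highest PD value, 6.37 CPM, was from the same pig 4 library. At 6h BPIFB1 was again the 1 call of 8, at 1.75 (SE 0.54, edgeR adjusted p = 0.0338), where 11.1% of 16201 genes were higher and 10% lower. Leaving out 1 pig ended that call in 7 of 9 cases, with edgeR adjusted p of 0.0544 to 0.132. MUC1 had a log2 difference of -0.86 at 6h (SE 0.32), with an edgeR adjusted p of 0.0617.

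At 12h all 3 small secreted proteins were higher in PD and the groups did not overlap, as was so for 10.3% of all genes tested (11.2% were lower without overlap). SCGB1A1 was 401 to 1880 CPM in PD against 15.1 to 328 CPM in GS, a log2 difference of 3.46 (SE 0.78, edgeR adjusted p = 0.0108). BPIFA1 was 10.1 to 48.1 CPM in PD against 0.251 to 2.90 CPM in GS, a difference of 3.94 (SE 0.72, edgeR adjusted p = 0.00402). BPIFB1 was 26.8 to 93.3 CPM in PD against 3.01 to 14 CPM in GS, a difference of 2.78 (SE 0.50, edgeR adjusted p = 0.00379). These were 3 calls among 7 genes tested, as MUC4 had too few counts at 12h, where 10.2% of 16431 genes were called higher and 9.14% lower. No mucin was called, with log2 differences of -0.35 for MUC1, 0.76 for MUC5AC and 0.20 for MUC5B, and SPDEF was at 1.85 (SE 0.79, edgeR adjusted p = 0.116). Without PD pig 2, MUC1 was called lower in PD, with a log2 difference of -1.09 (edgeR adjusted p = 0.0228).

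These differences of level run beside a broader one between the groups. Over all genes, the median log2 difference of PD against GS at 12h was 1.46 for 779 genes with under 1000 bases of exon and -0.29 for 6545 genes with over 4000 bases, and at 0h it was 1.42 and -0.33. SCGB1A1 has 475 bases of exon, BPIFA1 1242 and BPIFB1 1858, whereas MUC5AC has 17792, MUC5B 18263 and MUC2 16139. The lower level of long genes in PD has the direction of the MUC2 difference between the groups, which was described without removal of this trend. With the trend of each library with exon length and GC content removed, the differences at 12h were 1.87 for SCGB1A1 (edgeR adjusted p = 0.0866, so the call was lost), 3.05 for BPIFA1 (0.00659) and 2.43 for BPIFB1 (0.00399). At 0h SCGB1A1 went from 0.98 to -0.55 and SPDEF from 1.6 to 2.09 (edgeR adjusted p = 0.0162), and at 6h BPIFB1 was 1.72 (0.057). Within GS the same removal gave -1.75 for SCGB1A1 and -3.15 for BPIFA1 at 12h, both still called. The groups also differed without overlap at 12h in summed basal cell markers, at 27.1 to 68.1 CPM in PD against 8.99 to 22.1 CPM in GS, and erythroid markers, at 7.9 to 366 against 0.492 to 4.97 CPM. The same was so at 12h for submucosal gland markers, at 160 to 220 CPM in PD against 134 to 147 CPM in GS. Alveolar type 2 cell markers did so too, at 18000 to 90700 against 7110 to 16200 CPM. Such sums follow their most abundant genes. SFTPC alone was 12600 to 85000 CPM in PD against 1690 to 6090 CPM in GS, whereas SFTPB was called lower in PD (log2 -1.82). Of 9 alveolar type 2 markers tested at 12h, 1 was called higher and 1 lower, against 10.2% and 9.14% of all genes, with a median of 0.15. None of 3 gland markers tested was called, and of 2 erythroid markers tested HBB alone was. Summed ciliated cell markers overlapped, at 167 to 277 CPM in PD pigs 3, 4 and 5 and 810 CPM in the pig 2 library that stood apart, against 138 to 244 CPM in GS. Group, kit, depth and such differences cannot be told apart in the levels.

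**Figure D4:**
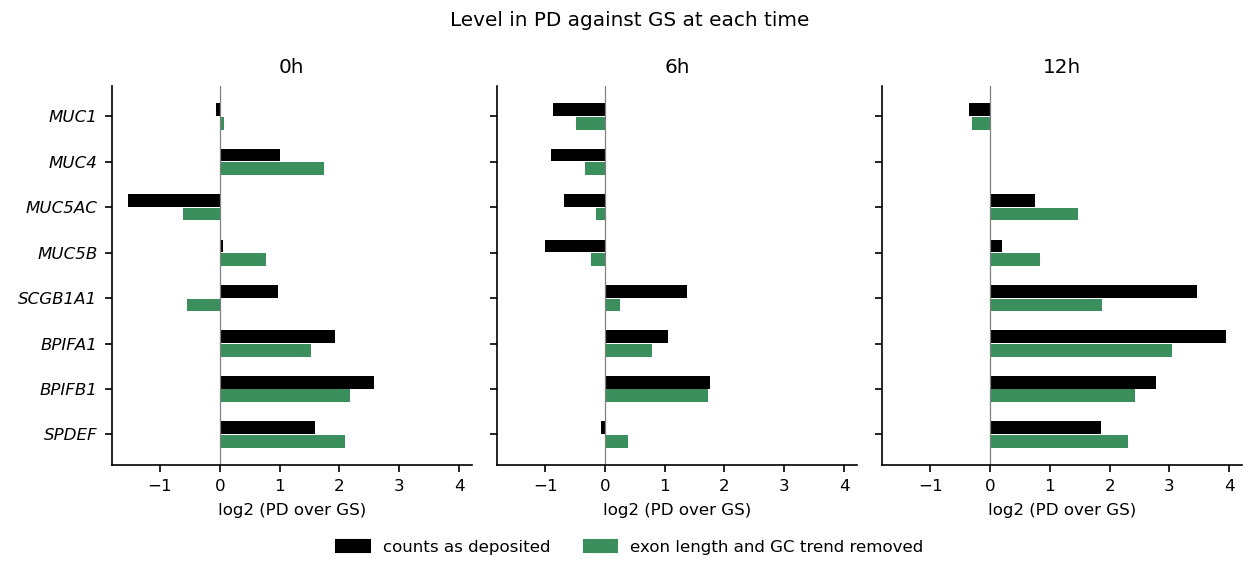
Log2 difference of level, PD over GS, at 0h, 6h and 12h for 8 of the genes, with counts as deposited (black bars) and with each library's trend with exon length and GC content removed (green bars), drawn without error bars. MUC4 was not tested at 12h. The SCGB1A1 bar shortens from 3.46 to 1.87 at 12h and changes sign at 0h, while the BPIFA1 and BPIFB1 bars stay on the right at all times.

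Genes that work with these products were read from fixed lists, which were chosen with earlier results of these data known. Of 21 genes for mucin folding and glycosylation tested in GS at 12h, 2 were called higher and 2 lower, where 6.99% of all genes were called higher and 8.66% lower, so that these counts are near the background and are given as a description. The list median was 0.23 on the log2 scale against -0.08 over all genes. GCNT3 and GCNT1, which branch the O-linked sugar chains of mucins, fell. GCNT3 went from a median of 1.54 CPM (0.438 to 2.29) at 0h to 0.166 CPM (0.0547 to 0.392) at 12h, without overlap (5.87% of all genes were so), a log2 change of -2.71 (SE 0.52, edgeR adjusted p = 0.00175). Its lowest 12h value lay within the range of the floor of 3 counts in GS. GCNT1 was at -1.20 (SE 0.35, edgeR adjusted p = 0.016), a call lost in 4 of 12 alternatives (-1.02 to -0.68). C1GALT1, which makes the core those branches start from, rose by a log2 value of 1.03 (SE 0.17), a call lost in 3 of 12, and CREB3L1, a membrane-bound transcription factor of the secretory pathway, by 1.52 (SE 0.16), from 17.2 to 34.3 CPM at 0h to 64.1 to 86.1 CPM at 12h. At 6h 1 gene of the list was called higher (CREB3L1, 1.10) and 2 lower (GCNT3, -1.75, lost in 3 of 12 alternatives, and GCNT1, -1.31, lost in 4), where 5.5% of all genes were called higher and 5.56% lower.

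GCNT3 and GCNT1 fell in PD at 12h too, by log2 values of -1.96 (SE 0.51) and -1.77 (SE 0.42), with edgeR adjusted p of 0.0472 and 0.0358. They were the 2 calls among 20 genes of the list tested there, where 2.76% of all genes were called lower. The GCNT3 call was lost in 5 of 12 alternatives and the GCNT1 call in 3 of 12. GCNT3 was 1.09 to 2.79 CPM at 0h and 0.276 to 0.647 CPM at 12h in PD, again without overlap, as were 9.39% of all genes. Here too its lowest 12h value lay within the range of the floor of 3 counts. The list median in PD at 12h was 0.09, against -0.05 over all genes.

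Of 19 inducers of mucin genes and their receptors, 7 were called higher and 1 lower in GS at 12h, against 6.99% and 8.66% of all genes, with a list median of 0.70 against -0.08 over all genes. This list holds IL6 and TNF, whose rise in these lungs the authors had reported. Its counts are thus in part a matter of choice and are a description only. AREG (log2 3.94) and EREG (3.09), ligands of the EGF receptor, rose, as did the interleukin 1 receptor IL1R1 (2.21) and IL6 (2.13). EREG went from 10.6 to 55.3 CPM at 0h to 90.5 to 242 CPM at 12h in GS. EGF itself fell by a log2 value of -1.14, at under 1 CPM in all GS pigs at both times, a call lost in 9 of 12 alternatives. At 6h 7 of the list were called higher, led by AREG (3.75), EREG (2.65), IL6 (2.23) and IL1R1 (2.12), and none lower, against 5.5% and 5.56% of all genes. In PD at 12h 8 of 19 were called higher and none lower, against 3.22% and 2.76% of all genes, with a median of 1.20, led by IL6 (4.51), IL1R1 (3.27), AREG (3.09) and IL1B (3.03). At 6h in PD IL6 (3.77) and TNF (3.20) were called higher, against 0.142% of all genes. Those 2 calls at 6h were each lost in 3 of 12 alternatives. At 12h the calls of IL1R1 and IL1B were each lost in 3 of 12, and those of IL6 and AREG in 2 of 12.

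Of 17 genes for granule release and hydration of mucus, STX3 (log2 1.59), a fusion protein of apical membranes, and P2RY2 (1.41), the nucleotide receptor that triggers mucin release, rose in GS at 12h and none fell, where 6.99% of all genes were called higher. Both rose in PD at 12h as well, by 1.98 and 1.99, where 3.22% of all genes were called higher, each a call lost in 3 of 12 alternatives. Both had risen at 6h in GS (1.32 and 1.38). The list medians at 12h were -0.14 in GS and -0.21 in PD, close to those of all genes (-0.08 and -0.05).

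Few genes of the other secretory lists were called over time. Of 12 other goblet cell genes, CLCA4 (log2 -1.25, lost in 3 of 12 alternatives) was the 1 called lower in GS at 12h, and of 12 other airway secretions LYPD2 (-1.28, at under 1 CPM, lost in 7 of 12) was, which is near the 8.66% of all genes called lower. The medians of these lists were -0.41 and 0.01, against -0.08 over all genes. Of 4 other mucins tested none was called in GS at 6h or 12h. In PD, where 10 goblet cell genes, 11 airway secretions and 1 other mucin were tested, none was called at 6h or 12h.

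Some other secreted airway proteins were also higher in PD. SCGB3A1, a secretoglobin of larger airways, was higher in PD at 0h, 6h and 12h by log2 values of 4.21, 3.57 and 4.46, and TFF3, a trefoil peptide released with mucins, by 3.33, 2.76 and 4.06. WFDC2, a small secreted member of a protease inhibitor family, was higher by 1.81 at 0h, a call lost with the exon length and GC trend removed (0.45), and by 3.27 at 12h, a call lost in 6 of 14 alternatives. Its call at 6h was lost in 5 of 14. Of the other mucins, 1 of 2 tested was called lower in PD at 0h, 0 of 3 at 6h and 1 of 4 at 12h, where 13.9%, 10% and 9.14% of all genes were, with PD values at or near the floor of 3 counts. MUC13 at 0h was 0 to 0.164 CPM in PD against 0.14 to 1.56 CPM in GS, and MUC6 at 12h was 0 to 0.216 CPM in PD against 0.219 to 0.423 CPM in GS, a call lost in 6 of 10 alternatives. CREB3L1 was called lower in PD at 0h, 6h and 12h (-1.89, -2.15 and -1.44), and the call at 12h was lost in 7 of 14 alternatives. At 12h, 3 of 11 other airway secretions were called higher and none lower, where 10.2% of all genes were higher and 9.14% lower, with a list median of 1.19 against -0.01 over all genes. At 6h it was 3 higher and 1 lower (CYP2F1, -1.46) of 11, where 11.1% and 10% of all genes were. The CYP2F1 call was lost in 6 of 14 alternatives, and that of SCGB3A2, among the 3 higher, in 7 of 14 (0.51 to 1.45). Of 10 other goblet cell genes at 12h, 3 were called higher and 1 lower (NKX2-1, -1.06), with a list median of 0.05. The NKX2-1 call was lost in 9 of 14 alternatives (-1.17 to -0.72). Among the 3 called higher, CLCA1 lost its call in 5 of 14 and CLCA2 in 2 of 14.

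The genes were also compared with each other over the libraries, after the mean of each group and time had been taken from the log2 CPM. The libraries share pigs and differ in depth, so these correlations are a description. MUC5B and SPDEF were most alike over 27 libraries, with Pearson's r of 0.897. Over the 25 without those that stood apart MUC4 and MUC5AC were, with r of 0.794 against 0.783 for MUC5B and SPDEF. Over 27 libraries MUC4 and MUC5AC had r of 0.713, and MUC5AC and MUC5B, neighbours on chromosome 2, had 0.658 (0.535 over 25). SCGB1A1 and BPIFA1, which fell together in GS, had r of 0.378, and the neighbours BPIFA1 and BPIFB1 had -0.047.

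**Figure D5:**
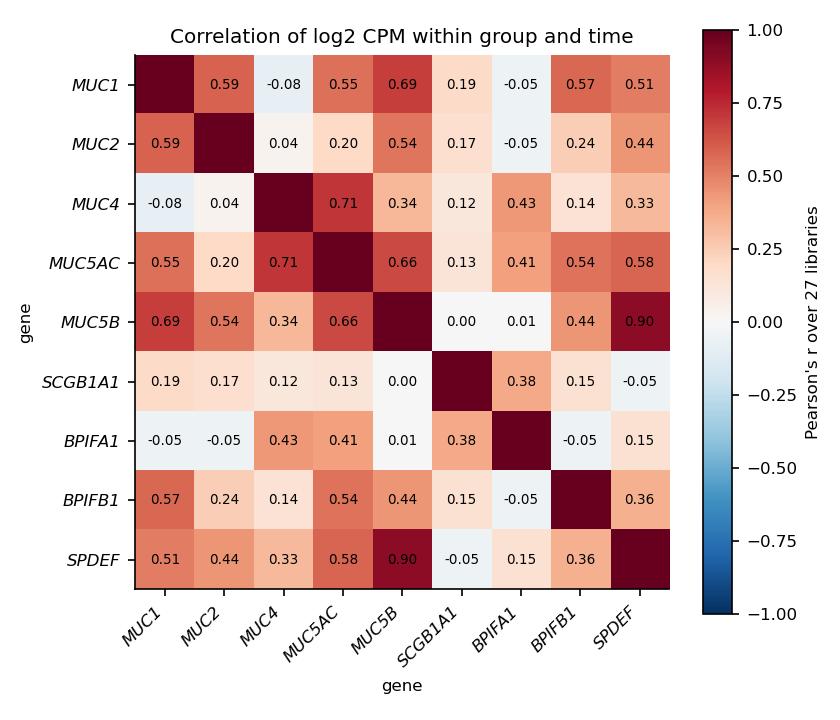
Pearson's r between the log2 CPM of each pair of the 9 genes over 27 libraries, after the mean of each group and time was removed. Red is positive and blue negative on a scale from -1 to 1, and the number in each square is r. MUC5B with SPDEF (0.897) is the strongest pair over these 27, and SCGB1A1 and BPIFA1 have weak values with most mucins.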

How the data were processed

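Lung biopsies of 5 GS and 4 PD pigs at 0h, 6h and 12h were sequenced as mRNA libraries. The authors deposited raw counts per Ensembl gene of Sscrofa11.1. Submitters' processing notes name bcl2fastq 2.2.18.12, cutadapt 1.15, TopHat2 2.0.14, featureCounts, Subread 1.6.0 and DESeq2 1.18.1. Strand and multiple-mapping settings are not given in the sources used here, and no reads were realigned.

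After filterByExpr and TMM scaling, counts were tested two-sided with the robust quasi-likelihood test of edgeR (4.0.16, under R 4.3.3), and p-values were Benjamini-Hochberg adjusted over all genes tested. Called genes had an adjusted p below 0.05 and changed at least 2-fold. Times were compared within a group with the pig as a block, and levels of PD against GS at each time. Changes per pig (rlog, DESeq2 1.42.0) were compared by exact two-sided Wilcoxon tests. The scripts were tested on simulated data. Pairing comes from the pig numbers in the labels. Libraries of one pig had residuals with an average r of 0.526 in GS (0.342 to 0.74) and 0.109 in PD (-0.283 to 0.488). Between pigs it was -0.119 and -0.0322, but taking out the mean of each group and time pushes these values under 0, so they are no independent baseline. P-values of changes over time measure how far the changes varied between these pigs, with each pig's own level taken out. Those of levels at a given time measure the spread between these pigs.

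The genes and lists were chosen with earlier results of these data known. All 9 genes are named, and of each list at most 4 called genes per direction, by size of change. For likeness the 3 genes of highest r are named. Alternatives were no pig block, all libraries in a single fit, DESeq2, its size factors, no filter, no fold threshold, log2 CPM for rlog, an interaction term, leaving out each pig and, added later, removal of exon length and GC trends and of the 2 PD libraries that stood apart. Exon lengths, starts and symbols missing from the table came from RefSeq on the same build.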

Additional observations from a re-analysis of the deposited data

Results flagged for a closer look

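In 54 sets of pigs (9 genes in each group at each time), a single pig lay far from the others of its set in 10. Chance gives about 5% of sets if values are normally spread and the sets are independent. CPM values are skewed and the genes share libraries, so the 10 are not read as an excess. Of these 10, 5 were in the PD libraries that stood apart. In PD pig 4 at 0h, BPIFB1 was 218 CPM against 12.4 to 42.2 CPM in the other PD pigs, MUC5B was 12.4 CPM against 0.737 to 1.17 CPM, and SPDEF was 6.37 CPM against 0.79 to 1.43 CPM. In PD pig 2 at 12h, MUC1 was 149 CPM against 30.1 to 46.8 CPM and BPIFA1 was 48.1 CPM against 10.1 to 16.5 CPM.

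The other 5 were in 3 pigs, with 2 in GS pig 9, 2 in PD pig 3 and 1 in GS pig 17. SCGB1A1 in PD pig 3 at 12h was 401 CPM, under the 1730 to 1880 CPM of the other 3 pigs. MUC5AC was 10.9 CPM in PD pig 3 at 6h against 0.324 to 1.85 CPM, and 18.1 CPM in GS pig 9 at 6h against 0.665 to 4.92 CPM. MUC2 was 0.076 CPM in GS pig 17 at 6h, where the other 4 pigs were at 0.831 to 1.04 CPM, and it was 0.0592 CPM in GS pig 9 at 0h, which is 2 counts against at most 1 in the others.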

How the results depend on the processing

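Of 142 repeats of the counts of genes called, 127 were within 1.5 times the count reported, and of 779 repeats of the values of the 8 tested genes 705 kept their direction and their side of the threshold. In GS at 12h the 2 calls held under all alternatives except without the replicate block, where 1 was left (BPIFA1, -3.00). In GS at 6h the count ran from 0 to 1 over the pigs left out, since without GS pig 55 SCGB1A1 was called (-1.04, edgeR adjusted p = 0.00649). For the level at 0h it was 0 with no filter on low counts and 2 with DESeq2 or with the exon length and GC trend removed, where SPDEF joined, and from 1 to 2 over the pigs left out. For the level at 6h it was 0 with that trend removed and 0 to 1 over the pigs left out. The other counts of 0 stayed at 0, and the 3 calls at 12h became 4 with DESeq2 and 2 with the trend removed. The cause of these shifts was not tested. The ratio of MUC2 ran from 48.6 to 180 at 6h and from 98.0 to 390 at 12h over the GS pigs left out.

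The 779 repeats hold 55 changes of sign, all of values that had not passed the test. They leave out the values that the text gives only as counts (12h against 6h and the difference of the changes at 12h for the 6 genes other than SCGB1A1 and BPIFA1, and the difference of the changes at 6h for all 8), of which 340 repeats gave 40 further changes of sign and no call. Within GS, SPDEF at 12h was 0.05 without the replicate block and 0.01 with DESeq2 or its size factors. Within PD at 12h, without the replicate block MUC1 was 0.09 and BPIFB1 -0.30, with DESeq2 or its size factors MUC1 was 0.04 and MUC5B 0.07 or 0.04, with no filter both were 0.02, and with the trend removed MUC5B was 0.13. Without the PD libraries that stood apart, MUC5AC (0.79), MUC5B (0.91), BPIFB1 (0.15) and SPDEF (0.12) changed sign at 6h and MUC5B (0.45) and SCGB1A1 (-0.05) at 12h. For levels, the trend removed gave 0.07 for MUC1 and -0.55 for SCGB1A1 at 0h and 0.39 for SPDEF at 6h, and no filter gave -0.07 for MUC5B at 0h. Over the pigs left out, values crossed 0 for MUC4 (-0.85 to 1.05) and BPIFB1 (-0.64 to 0.06) in GS at 6h and SPDEF (-0.36 to 0.18) in GS at 12h. In PD at 6h they did so for MUC5AC (-2.80 to 1.61), MUC5B (-1.89 to 1.11), BPIFB1 (-1.28 to 0.17) and SPDEF (-1.75 to 0.16). In PD at 12h they did so for MUC1 (-0.71 to 0.58), MUC5AC (-1.36 to 1.71), MUC5B (-1.74 to 1.82), BPIFA1 (-0.71 to 0.44), BPIFB1 (-0.24 to 1.44) and SPDEF (-1.18 to 1.67). For levels they did so for MUC1 (-0.37 to 0.19) and MUC5B (-1.97 to 0.38) at 0h, MUC5AC (-2.51 to 0.61) and SPDEF (-0.32 to 0.13) at 6h, and MUC5AC (-0.45 to 1.12) and MUC5B (-1.07 to 0.59) at 12h. Without PD pig 4 the 1 gene called at 0h was MUC5B, lower in PD (-1.97, edgeR adjusted p = 0.00348).

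Removal of the exon length and GC trend and of the PD libraries was chosen after seeing the data. Among list genes, DNAH5 and EGF in GS at 12h lost their calls in 9 of 12 alternatives and LYPD2 in 7, and in PD at 12h GCNT3 did so in 5 and GCNT1, IL1B, IL1R1, P2RY2 and STX3 each in 3. The higher level of WFDC2 at 12h was lost in 6 of 14 alternatives, the lower one of CREB3L1 in 7 of 14 and that of MUC6 in 6 of 10. Depth limits MUC2, MUC4 and SPDEF most, above all in PD, whose floor of 3 counts was 0.129 to 0.324 CPM.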

Other observations

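The genes whose log2 CPM ran most closely with each member over the 27 libraries are given as a description, since the libraries share pigs, groups and depth. BPIFA1 was most like KRT15 (r = 0.766), a keratin of basal cells, ADGRF1 (0.753) and LGALS13 (0.751). SCGB1A1 was most like GSTM3 (0.762), a glutathione transferase, CDC23 (0.743) and IDO1 (0.736). MUC5AC was most like MUC5B (0.682), WDR83 (0.679) and ERN2 (0.647), the stress sensor of mucus-secreting epithelium. BPIFB1 was most like TIMM10 (0.82), MRPS15 (0.819) and MRPL36 (0.817). SPDEF was most like ZNF444 (0.913), FBXW9 (0.897) and UBXN11 (0.888), MUC5B like TCAP (0.865), CEP131 (0.859) and DRC3 (0.831), and MUC1 like PQBP1 (0.878), RNASEH1 (0.84) and DKKL1 (0.84). MUC2 and MUC4 had too few counts for this comparison.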
